A study of Strongylocentrotus droebachiensis with 6 samples.

Results

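Wnt8 and wnt1 are the genes of the table that carry the name of a Wnt ligand. They were taken as the rows whose identifier equals Wnt8 or wnt1, which gave 2 of 31261 rows, and both passed the minimum mean value of 1 that 18016 rows reached. Their levels were compared between intact and half-size embryos of Strongylocentrotus droebachiensis, the green sea urchin. No gene description or genome was used, so Wnt ligands listed under LOC identifiers cannot be named and are not analysed here.

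Wnt ligands are secreted glycoproteins that bind Frizzled receptors. In the canonical branch they stabilise beta-catenin, which enters the nucleus and turns Tcf/Lef proteins from repressors into activators. In sea urchin embryos, known mainly from S. purpuratus, this signal runs along the animal-vegetal axis. Wnt8 is made in vegetal cells, where it belongs to the gene network that specifies endoderm and mesoderm, and it also limits the apical neuroectoderm. Wnt1 is made later on the vegetal side and is known for keeping nodal expression out of the posterior ventral ectoderm.

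Polyadenylated RNA of wild-type embryos was sequenced in 3 control and 3 half-size samples, all at the mesenchyme blastula stage, 46 hours after fertilisation, when skeleton-forming cells enter the blastocoel. Per the labels' protocols, eggs were kept after fertilisation in 1 mM aminotriazole, an agent that stops the envelope from hardening. Seawater lacking calcium and magnesium was then applied for 15 min at the first cleavage (3.5 hours), and passage through a needle parted the 2 blastomeres; half-size embryos grew from the separated blastomeres, and both groups were raised at 8 °C. The labels describe these steps once for all samples and do not say which of them the intact controls went through. The source label reads as tissue explants, while the protocols describe whole embryos. Adults came from the Barents and White Seas over 3 breeding seasons, and the labels tie neither sea nor season to a sample.

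Library totals ran from 1804336 to 2294541 reads. The table names its columns by group only, so replicates carry no number. Each half-size library resembled 1 control library in how it departed from its group mean (r = 0.76, 0.63 and 0.52 over the 11129 rows whose mean reached 10), and these couples are called pairs A, B and C. The pairing was found from the values, and neither sea, season nor parents could be set beside it. Pair A stood apart in the genes of the skeleton-forming cells. Of 9 measured skeletogenic genes, 8 were higher in both pair A libraries than in every other library, against 16.4% of all tested rows. Their summed normalised count ran from 4403 to 12137 over half-size and from 4269 to 8638 over control libraries.

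Wnt8 showed no difference between half-size and intact embryos that exceeded the spread between libraries. Its normalised read count, which is the read count divided by a size factor per library, was 581, 814 and 965 in the half-size libraries of pairs A, B and C. In the control libraries of the same pairs it was 480, 855 and 709. The groups overlapped: control B lay above half-size A and B, and both pair A libraries were the lowest of their groups. Half-size embryos averaged 786 ± 194 and control embryos 682 ± 189 (SD, n = 3 each). The log2 difference was 0.22 ± 0.26 (SE), a factor of 1.16 with a 95% interval from 0.774 to 1.74, and it did not pass limma-trend (adjusted p = 1.00, unadjusted p = 0.429). A doubling or a halving of Wnt8 therefore lay outside that interval, while smaller differences in either direction lay inside it. In these whole-embryo libraries, fewer cells that express a gene and less RNA per cell cannot be told apart.

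For wnt1, too, the groups differed by less than the spread between libraries. Its normalised read count was 108, 110 and 101 in half-size libraries A, B and C. In the controls it was 105, 121 and 71.9. The half-size values lay close together and inside the range of the controls, whose pair C library was the lowest of all 6. The mean was 106 ± 4.97 for half-size embryos and 99.6 ± 25.3 for controls (SD, n = 3 each). The log2 difference was 0.12 ± 0.25 (SE), a factor of 1.09 with a 95% interval from 0.743 to 1.60, and limma-trend gave adjusted p = 1.00 (unadjusted p = 0.627). Neither ligand was among the calls of this test, which called 0 of 18016 rows (0%), with 1.34% of rows at an unadjusted p under 0.05. The test with the pair as a block called 3 rows (0.0167%, with 5.27% at an unadjusted p under 0.05) and again neither ligand.

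**Figure D1:**
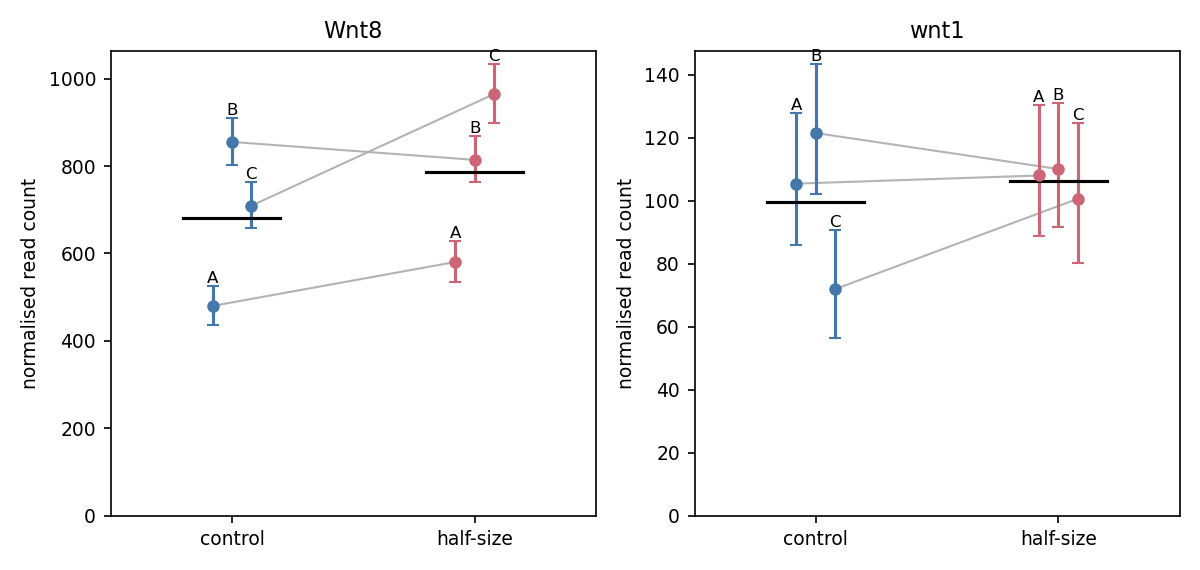
Normalised read counts of Wnt8 (left) and wnt1 (right) in each library, with 95% Poisson intervals that cover counting error only; letters name the pair, grey lines join the libraries of a pair and black bars are group means (n = 3 each). For both genes the groups overlap, and the half-size value lies below its control in pair B and above it in pairs A and C. The counting intervals of a pair overlap in pairs A, B and C for wnt1, and only in pair B for Wnt8.

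The difference was not the same in every pair. For Wnt8 the half-size library stood above its control by 0.27 in pair A and 0.44 in pair C on the log2 scale, and differed by -0.07 in pair B. For wnt1 the differences were 0.03 in pair A, -0.14 in pair B and 0.48 in pair C. Both genes thus had their largest difference in pair C and a negative one in pair B. All 3 pairs had 1 direction in 25% of tested rows, and neither ligand was among them. With the pair as a block the interval of the fold narrowed to between 0.946 and 1.42 for Wnt8 (adjusted p = 0.936 in limma-trend) and to between 0.830 and 1.43 for wnt1 (adjusted p = 0.961).

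Leaving out single libraries, without the block, turned the sign only for control A in Wnt8 and for control C in wnt1. Each such fit also leaves a library without its pair. Leaving out control A gave a Wnt8 difference of -0.02, leaving out half-size C gave 0.05, and leaving out half-size A or control B gave 0.42 or 0.40. Leaving out control C gave -0.09 for wnt1, and leaving out control B gave 0.28. With both libraries of a pair left out and the block kept, Wnt8 stayed positive, at 0.19, 0.36 and 0.10 without pairs A, B and C. For wnt1 the values were 0.17, 0.26 and -0.05. The authors' deposited table gave log2 fold changes of 0.21 (SE 0.29) for Wnt8 and 0.09 (SE 0.31) for wnt1, with an adjusted p of 1.00 for each.

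Counting error was small for Wnt8 and not for wnt1. Between 469 and 993 reads per library lay behind Wnt8, and between 72 and 141 behind wnt1. The half-size and control libraries varied in Wnt8 by 24.6% and 27.8% (coefficient of variation, n = 3 each), where counting alone would give 3.61% and 3.72%. The 446 rows within 1.5 times the mean of Wnt8 varied by a median of 17.2% and 16.9%. For wnt1 the controls varied by 25.4% where counting would give 9.74%. The half-size libraries varied by 4.68%, below the 9.73% of counting, so no difference among them was detectable at this depth. In the order of all 31261 rows by mean normalised count Wnt8 stood at place 527 and wnt1 at place 3014. Gene lengths were not used here, so these places do not say which ligand had more transcripts.

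For Wnt8 the libraries differed by pair more than by group. The pair took 80.5% of its sum of squares on the log2 scale, the group 9.83% and the rest 9.70%. For wnt1 the shares were 62.3%, 6.95% and 30.8%. Over 11129 rows the medians were 65.5%, 6.45% and 18.8%, so wnt1 lay near a typical row in its pair share and Wnt8 above it. The pairs were found by the likeness of these same libraries, which favours a high pair share in any row.

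The balance of both ligands within a library followed the pair closely. The wnt1 count was 18.6% of the Wnt8 count in half-size A (95% exact binomial interval 15.0% to 22.9%) and 22.0% in control A (17.6% to 27.2%). In pair B it was 13.5% (11.1% to 16.3%) in the half-size and 14.2% (11.8% to 17.0%) in the control library. In pair C it was 10.4% (8.21% to 13.1%) and 10.1% (7.84% to 12.9%). The libraries of a pair lay within each other's counting interval, while those of pairs A and C did not overlap. These percentages are not corrected for gene length and are read only between libraries. The pair took 96.8% of the sum of squares of the log2 ratio and the group 1.29%. Here too, pairs found from these same libraries favour a high pair share. Ratios of other genes were not set beside it, so the share is not shown to be particular to these ligands. Between groups the log2 ratio averaged -2.85 ± 0.42 over half-size and -2.76 ± 0.56 over control libraries (SD, n = 3 each), a difference of -0.09 (two-sided exact permutation p = 0.8; the smallest possible p is 0.1).

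**Figure D2:**
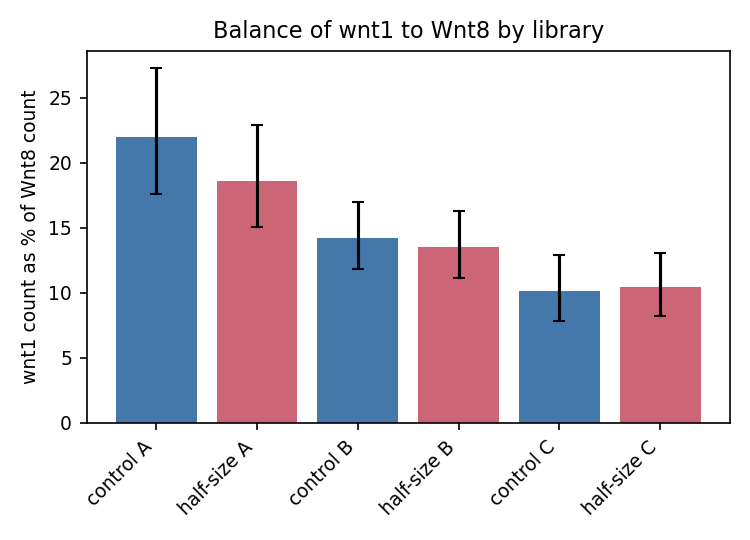
The wnt1 read count as a percentage of the Wnt8 read count in each library (bars from 0; blue control, red half-size), with 95% exact binomial intervals for counting error. Bars stand together by pair, near 20.3% in pair A, 13.9% in pair B and 10.3% in pair C on average, and not by group.

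Other genes of the Wnt pathway were sought by symbol, and 4 beside the ligands were found and measured: 3 extracellular regulators, 1 nuclear factor and 0 receptors. None passed over all rows, with or without the block, and 0 of the 6 Wnt genes had an unadjusted p under 0.05 in either limma-trend fit. Over all rows 1.34% had one without and 5.27% with the block, so 0 of 6 says little about these genes. Over the 6 genes 4 had higher and 2 lower values in half-size embryos, with a median log2 difference of 0.17, against -0.000467 over all tested rows. None had groups that did not overlap, which 5.35% of all rows had, and none kept 1 direction in all pairs, which 25% of all rows did.

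SFRP, a secreted Frizzled-related protein that binds Wnt ligands outside the cell, had 784, 905 and 1323 normalised counts in half-size libraries A, B and C. The controls had 790, 896 and 855. Only half-size C stood above the rest, and the log2 difference of 0.21 ± 0.21 (SE) came from 0.63 in pair C, with -0.01 and 0.01 in pairs A and B. Half-size C was also the library with the highest Wnt8 count.

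Glypicans are cell-surface heparan sulfate proteoglycans that carry Wnt and other ligands. Gpc-5 had 122, 179 and 94.5 normalised counts in half-size and 114, 222 and 171 in control libraries of pairs A, B and C. Its log2 difference of -0.35 ± 0.31 (SE) ran from 0.10 in pair A to -0.85 in pair C. In gpc-6 the counts were 48.5, 76.6 and 52.1 against 54.2, 74.9 and 61.9, a log2 difference of -0.12 ± 0.27 (SE). Both glypicans had values lower in half-size C than in control C, opposite to the ligands and SFRP.

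Tcf/Lef, the nuclear factor of the canonical pathway, was the weakest of these rows. Its normalised counts were 19.8, 30.8 and 10.9 in half-size and 11.3, 18.1 and 19.98 in control libraries. It was higher in half-size embryos in pairs A and B and lower in pair C, with a log2 difference of 0.23 ± 0.43 (SE). At these low counts its 95% interval, a factor of 0.597 to 2.30, holds both no difference and a doubling.

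**Figure D3:**
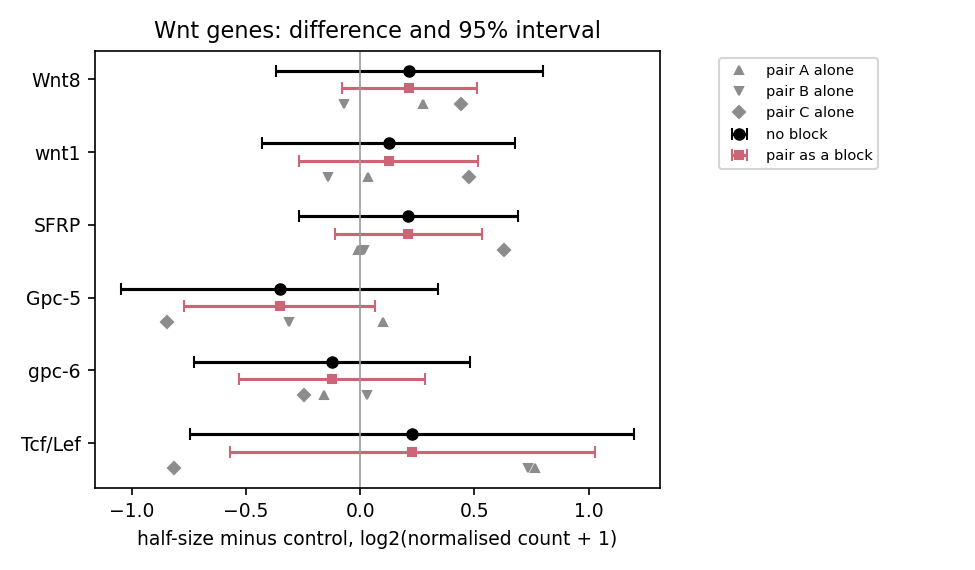
Half-size minus control differences in log2(normalised count + 1) for the 6 measured Wnt genes. Black circles and bars are the difference with its 95% interval without a block, red squares the same with the pair as a block, and grey marks single pairs; every interval of both fits crosses 0.

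Rows like Wnt8 across the 6 libraries were found among 190 named rows with a mean of at least 10, by Pearson's r of log2(count + 1). Among the 3 most alike were eve (r = 0.96) and foxq2 (r = 0.96). These r values describe 6 libraries that share pairs, and 46 of all 11128 other rows were more like Wnt8 than eve was. The gene eve is a homeobox gene of the vegetal ring of cells next to the endoderm. For eve the normalised counts were 703, 1253 and 1292 in half-size and 589, 1233 and 804 in control libraries. Like Wnt8 it was lowest in both pair A libraries and higher in half-size C than in control C. It differed by 0.32 ± 0.31 (SE) on the log2 scale and was not called (limma-trend adjusted p = 1.00; 0.936 with the block). foxq2, a forkhead gene of the apical plate at the opposite pole, had 16.8, 50.2 and 70.3 against 9.21, 38.8 and 44.0 normalised counts.

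For wnt1 the most alike named rows were FoxG (r = 0.91), blimp1/krox (r = 0.90) and abcb4 (r = 0.85), over the same 6 libraries. Their Spearman rank correlations with wnt1 were lower, at 0.6, 0.83 and 0.54 in the same order. FoxG is a forkhead gene of the ectoderm, blimp1/krox a zinc finger regulator that acts in the vegetal network together with Wnt8, and abcb4 an ABC transporter gene. The normalised counts of blimp1/krox were 2147, 1887 and 1708 in half-size and 2039, 2197 and 1482 in control libraries. As in wnt1, control B was the highest control and control C the lowest library. Its level differed by 0.02 ± 0.20 (SE) on the log2 scale. For wnt1, 77 of the 11128 other rows were more alike than FoxG.

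**Figure D4:**
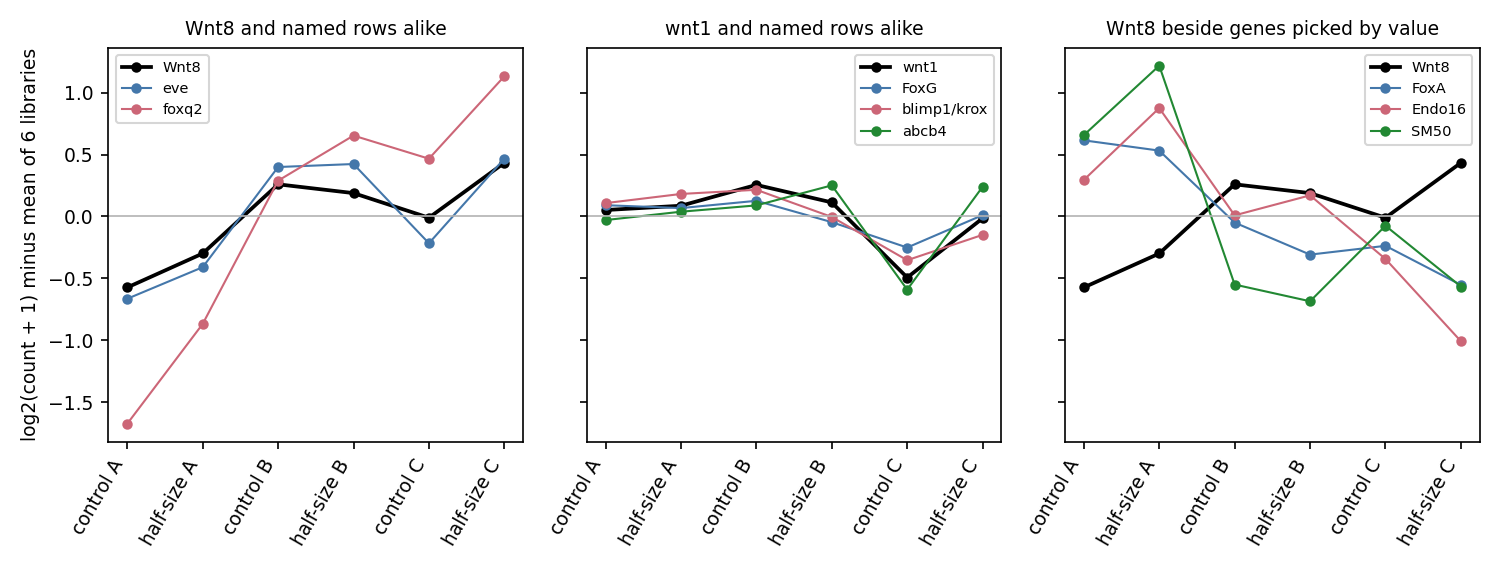
Log2(count + 1) minus the mean of the 6 libraries, by library, for Wnt8, eve and foxq2 (left), wnt1 and its most alike named rows (middle), and Wnt8 with FoxA, Endo16 and SM50 (right), which were chosen after their values were seen. Wnt8, eve and foxq2 are lowest in pair A, where FoxA, Endo16 and SM50 are highest.

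Genes of the tissues that Wnt signals help to place were compared in the same fit. Of 13 vegetal endomesoderm genes matched, 12 were measured (PMAR1 was below the mean of 1), and 4 had higher and 8 lower values in half-size embryos, with a median log2 difference of -0.11. None was called with or without the block. GATAe, an endoderm transcription factor gene, and Hbox7, a homeobox gene, had the smallest p-values in the list without the block. With the block the smallest were those of gcm, a pigment cell regulator with a log2 difference of -0.53 (limma-trend adjusted p = 0.587), and of GATAe (limma-trend adjusted p = 0.660). Hbox7 had 646, 650.5 and 659 normalised counts in half-size and 822, 799 and 676 in control libraries, a log2 difference of -0.23 ± 0.17 (SE), and its groups did not overlap. GATAe differed by -0.54 ± 0.22 (SE), and its groups did not overlap either. Of the 12 genes, 3 had groups that did not overlap (hnf6, an Onecut-family homeobox gene, was the other, chosen after its values were seen), all with half-size lower, as in 2.84% of all rows.

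Of the 3 measured anterior neuroectoderm genes none was called. NK2.1 differed by -1.03 ± 0.39 (SE), FoxJ1 by 0.41 ± 0.22 (SE) and foxq2 by 0.61 ± 0.64 (SE), so that 1 had lower and 2 had higher values in half-size embryos. Each of the 3 kept its direction in all pairs, as 25% of all rows did, and had an unadjusted p under 0.05 with the block, as 5.27% did (limma-trend adjusted p = 0.121 for NK2.1 and 0.936 for the other two). Of 8 oral ectoderm genes, 4 had higher and 4 lower values, with a median of -0.03. With the block 3 of them had an unadjusted limma-trend p under 0.05, beside the same 5.27% of all rows. So did 3 of the 12 vegetal genes, eve among them. The ARID-family gene dri, a factor of skeletogenic cells as well as oral ectoderm, differed by -1.21 ± 0.34 (SE). It was the 1 gene of these lists that was called, only with the block (limma-trend adjusted p = 0.0469, 1.00 without it). That blocked fit called 3 of 18016 rows (0.0167%), and its pairs were found from these same values. Nk1 differed by -0.70 ± 0.39 (SE).

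Some genes of the gut, skeleton and hatching also stood apart in pair A, the pair with the lowest Wnt8. In the vegetal endomesoderm list as a whole, 3 of 12 genes (FoxA, Endo16 and GATAc) were highest and 2 (eve and ets1) lowest in both pair A libraries, against 16.4% and 14.4% of all tested rows. FoxA, an endoderm forkhead gene, had 4058 and 4298 normalised counts in the half-size and control library of pair A and between 1914 and 2712 in the other 4. Of all 190 named rows it was the most opposite to Wnt8 (r = -0.92 over 6 libraries, a description). Endo16, a gut gene, had 2026 and 1355 in pair A and between 549 and 1243 elsewhere. SM50, a spicule matrix gene, had 1374 and 931 against 367 to 560. HE, the hatching enzyme gene, which is used early, had 5.94 and 10.2 in pair A and between 39.96 and 471 in the others. These 4 genes were chosen after their values were seen. Their part in the level of Wnt8 was not tested. Of the 6 stage genes listed, 2 (SPEC1 and spec2c) were highest and 2 (HE and ebr1) lowest in pair A, beside the same 16.4% and 14.4% of all rows, and their sum ran from 6401 to 8758 in half-size and from 5991 to 6683 in control libraries.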

How the data were processed

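A stranded mRNA kit was used, per the labels' protocols. Bowtie2 2.2.2, DESeq and edgeR are listed in the submitters' processing notes, without roles. Identifiers are those of the Spur_4.2 annotation of S. purpuratus, per the file headers, so reads were assigned to genes of a related species; for the counter and strand setting nothing is stated in the labels or headers. The deposited values are a signal, made by the authors from read counts and 1 size factor for each library: 100% of values were whole multiples of their column's step within 1e-06, which gave back the reads. In the table the libraries of each pair stand next to each other. The authors' deposited log2 fold changes, test score and p-values come with no statement of their model. DESeq2 without the block, run on the recovered reads, gave p-values for the same number of rows (23976) and called as many (4), with fold changes of both ligands within 0.00023 of the deposited ones, so this alternative is no check independent of the authors' table.

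Main results come from limma-trend in limma 3.58.1 under R 4.3.3, run on log2(value + 1) for rows with a mean of at least 1, Benjamini-Hochberg adjustment over all 18016 rows and a threshold of 0.05. Fold changes on this scale understate those of weak genes. Alternatives were edgeR 4.0.16 (quasi-likelihood), DESeq2 1.42.0 and limma-voom on the recovered reads, other pseudocounts, filters and scalings, left-out libraries, and the pair as a block. Scripts were tested on simulated data. Members, gene lists and tests were chosen with earlier results of these data known. Named genes were the members, all measured Wnt list genes, the 2 smallest p-values of 3 neighbouring lists, and the 3 named rows most like each member, of which 1 is not reported here. The labels call the samples biological replicates without naming parents, so p-values reflect only how these samples vary, which may be technical. Intervals cover counting error only where so described.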

Additional observations from a re-analysis of the deposited data

How the results depend on the processing

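The labels number the replicates but the columns do not, so the replicate block rests on pairs found from the values. With the block no ligand was called, and limma-trend, edgeR and DESeq2 gave 0.22, 0.21 and 0.21 for Wnt8 and 0.12, 0.10 and 0.12 for wnt1. Wnt8 kept its sign in 20 of 21 settings and wnt1 in 19 of 21, and neither passed in any (lowest adjusted p 0.898 and 0.961). Leaving out 1 library gave -0.0171 to 0.42 for Wnt8, negative without control A, and -0.0916 to 0.28 for wnt1, negative without control C; wnt1 was also -0.05 without pair C. The wnt1 to Wnt8 difference of -0.09 ran from -0.36 to 0.20, positive without control A (0.20) or half-size C (0.11). It was -0.09 with the pair as a replicate block (exact sign-flip p = 0.5, smallest possible 0.25). The 0 genes called by limma-trend (242 at unadjusted p under 0.05) stayed 0 under edgeR, limma-voom, every scaling, filter and pseudocount listed and without each library (0 to 0). DESeq2 called 4. With the replicate block limma-trend called 3, edgeR 11 and DESeq2 22, and blocked limma-trend 80 without pair A, 0 without pair B and 31 without pair C; the cause was not tested. With 72 to 141 reads, counting error is not small for wnt1. Its controls still varied by 25.4%, where counting alone would give 9.74%.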
